A study of Mus musculus with 18 samples.

Results

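The genes described here are 10 members of the S100 and annexin families, taken by symbol from the 53672 gene rows of the count tables: S100a1, S100a4, S100a6, S100a10, S100a11, S100a13, Anxa1, Anxa2, Anxa3 and Anxa5. They were chosen by measured values, their counts in these libraries, and which comparison was used is not stated, so every member value below is a description without a p-value. RNA-seq was performed on E14TG2a mouse embryonic stem cells (ESCs) in which both endogenous Hdac1 and Hdac2 are flanked by lox sites in all 6 groups, and which stably expressed, from a piggyBac vector, wild-type HDAC1 (HDAC1-WT) or HDAC1 carrying a single surface substitution (HDAC1-E63R or HDAC1-Y48E). Each of the 3 rescue lines was sampled untreated and treated with 1 µM 4-hydroxytamoxifen (OHT), at 5 days, with 3 libraries per group and 18 in all. OHT removes the endogenous Hdac1 and Hdac2 genes, so that after treatment the cells depend on the introduced HDAC1, whereas untreated cells hold both. The untreated group of each line was its own control, and no group without an introduced HDAC1 was analysed here.

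S100 proteins are small calcium sensors with a pair of EF-hand motifs that mostly work as dimers. Annexins bind phospholipid membranes when calcium is present. The families meet in complexes: a dimer of S100A10 joins a pair of annexin A2 molecules at the plasma membrane, S100A11 binds annexin A1, and S100A6 binds several annexins. Such complexes link membranes to the actin cytoskeleton and take part in membrane repair, endocytosis and exocytosis, and most of these genes are better known from epithelial, mesenchymal and myeloid cells than from ESCs.

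Depth ranged from 9019615 to 11454638 counts on genes per library. Levels are in counts per 1000000 (CPM) unless another scale is named. Hdac1 and Hdac2 transcript counts were not lost after OHT (log2 fold changes of -0.24, 0.22 and 0.14 for Hdac1 and -0.66, -0.21 and -0.07 for Hdac2 in HDAC1-WT, HDAC1-E63R and HDAC1-Y48E), so gene counts, which for Hdac1 can include the introduced copy, did not check the deletion. Before treatment Hdac1 was already lower in the mutant lines, at 205 ± 4.98 CPM (SD, n = 3) in HDAC1-WT, 105 ± 8.82 CPM in HDAC1-E63R and 101 ± 2.92 CPM in HDAC1-Y48E (log2 fold changes of -0.96 ± 0.09 and -1.02 ± 0.09, edgeR adjusted p = 8.81e-08 and 5.6e-08), and its part in the untreated differences of the members was not tested. None of 8 pluripotency markers was at 0 in any group, which is only a weak check of the ESC label. Their summed level was 7829 to 8017 CPM in untreated HDAC1-WT libraries and 2657 to 2798 CPM in HDAC1-Y48E libraries after OHT. A single library stood apart from its group: HDAC1-E63R untreated replicate 3 differed from the other two libraries of its group by a chi-square per degree of freedom of 60.4 and 67.1, against 3.38 to 7.42 for every other pair within a group. In it, transcripts under 1000 bases were high relative to those over 5000 bases (a log2 contrast of 0.66, against -0.13 to 0.13 in the other 17), and ribosomal protein genes took 16.7% of counts against 7.97% to 12.2%. Most S100 transcripts are short, but the part of length in the member values of this library was not tested. With a correction for transcript length, the OHT effects of S100a6, S100a10 and S100a13 in HDAC1-E63R were 3.68, 0.86 and -0.68 on the log2 scale. They were 3.62, 0.79 and -0.81 without it. Member values that move when this library is left out are given both ways.

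Of the 10 genes, 9 passed the filter on low counts. S100a4, a motility-associated S100 gene, had 0 counts in all 18 libraries, which allows a level of up to 0.248 to 0.343 CPM per library. Of its exon bases 51.7% are shared with Gm42674 on the same strand, a gene also at 0, so reads falling there could have been assigned to neither. A gene was called a differentially expressed gene (DEG) if it changed by over 2-fold with an adjusted p below 0.01 in edgeR's quasi-likelihood test over 18791 genes. After OHT, 1 of the 9 members was a DEG in HDAC1-WT (S100a6, higher), where 0.0532% of all tested genes were DEGs and 0.0373% were higher. In HDAC1-E63R, 3 members were DEGs, all higher, against 5.91% of all genes and 4.74% higher (4 members, against 5.74%, without untreated replicate 3). In HDAC1-Y48E, 7 members were DEGs, 6 higher and 1 lower, against 16.6% of all genes, 10.8% higher and 5.84% lower. The median log2 fold change of the 9 members was 0.10, 0.73 and 1.29 in the 3 lines, beside 0.00, 0.03 and 0.05 over all tested genes. Since the members were picked with these contrasts in view, nothing is read from their counts or medians. Genes in bulk RNA are averaged over cells, and more cells expressing a gene cannot be told apart from more RNA per cell.

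**Figure D1:**
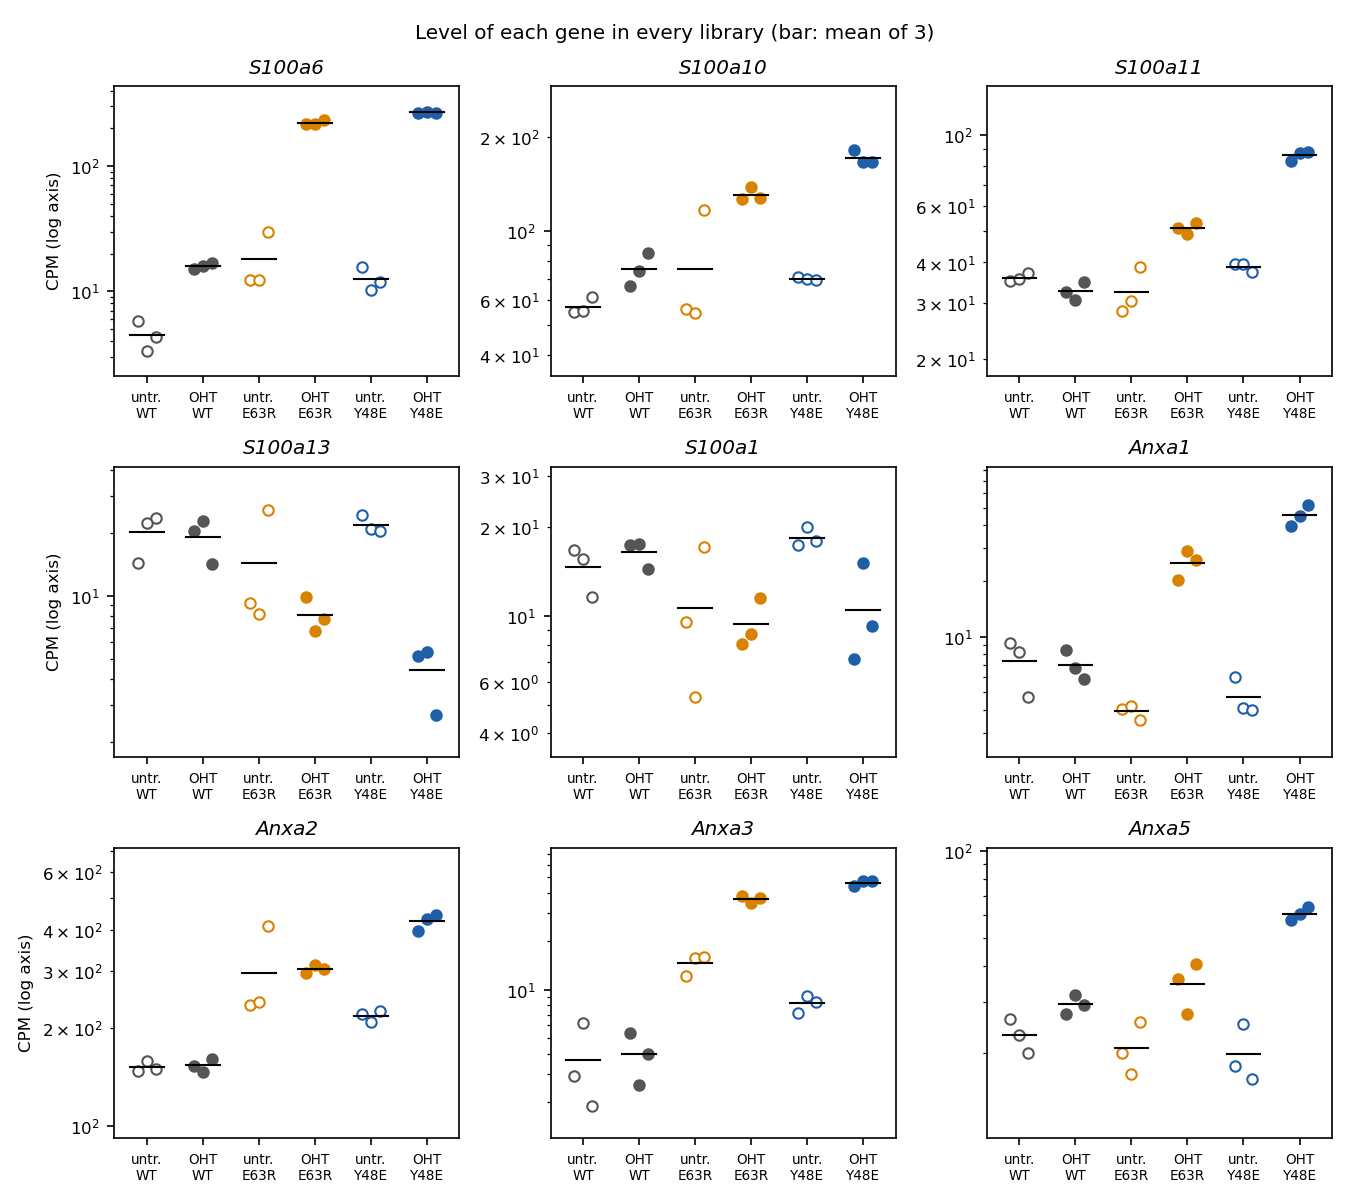
Level of each of the 9 detected genes in every library, in CPM on a log axis, by group (open circles untreated, filled circles OHT, bar the mean of 3 libraries). S100a6 lies between 3.35 and 5.77 CPM in untreated HDAC1-WT and at 267 to 272 CPM in HDAC1-Y48E after OHT, S100a13 is lowest in HDAC1-Y48E after OHT, and the single high open point of untreated HDAC1-E63R for S100a6, S100a10, S100a13, S100a1 and Anxa2 is replicate 3.

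All 6 S100 members lie on chromosome 3 (GRCm38), within 3.05 Mb from base 90511034 to base 93564643. S100a1, S100a13, S100a4 and S100a6 sit at the start of this region and S100a11 and S100a10 at its end, with the genes of the epidermal differentiation complex between them. RefSeq promoter windows (GRCm38.p6, 250 bases before to 50 bases after the gene start) matched 8 of the 10 members; S100a10 and Anxa3 were not among them. The motifs searched, on both strands, were the TATA box as TATAAA, the GC box as GGGCGG, the CCAAT box by those 5 letters and the AP-1 site as TGANTCA, none of which overlaps another in the windows shown. Among 32841 windows of the same length, 13.6% held TATAAA, 35.7% GGGCGG, 37.4% CCAAT and 7.81% TGANTCA. The windows printed are those of the pair that shares a promoter region, of the 2 genes that rose most, and of the member whose window holds 2 kinds of motif in several copies. The gene starts of S100a1 and S100a13 annotated in GENCODE M21 lie 43 bases apart on opposite strands. The S100a1 window is set on a RefSeq start that differs from its GENCODE start, so this distance does not apply to the windows. Of the windows of these genes, 204 bases are the same DNA, given in capitals in the first line. In the other lines capitals mark motif letters.
S100a13 (chr3:90514185-90514484, plus strand): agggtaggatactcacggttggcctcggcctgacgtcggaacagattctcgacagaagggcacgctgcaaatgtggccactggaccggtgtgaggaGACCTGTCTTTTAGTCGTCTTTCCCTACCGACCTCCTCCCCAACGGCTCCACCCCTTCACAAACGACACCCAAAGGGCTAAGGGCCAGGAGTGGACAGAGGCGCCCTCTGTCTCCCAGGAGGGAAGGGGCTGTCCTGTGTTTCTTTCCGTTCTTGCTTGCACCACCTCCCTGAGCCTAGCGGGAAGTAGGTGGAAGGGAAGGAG
S100a6 (chr3:90612644-90612943, plus strand): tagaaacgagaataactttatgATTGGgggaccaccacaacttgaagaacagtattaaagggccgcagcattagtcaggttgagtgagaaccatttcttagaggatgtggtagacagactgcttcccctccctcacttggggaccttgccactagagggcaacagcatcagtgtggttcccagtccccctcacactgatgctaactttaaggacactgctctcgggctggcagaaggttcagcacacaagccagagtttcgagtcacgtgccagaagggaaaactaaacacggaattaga
S100a11 (chr3:93520246-93520545, plus strand): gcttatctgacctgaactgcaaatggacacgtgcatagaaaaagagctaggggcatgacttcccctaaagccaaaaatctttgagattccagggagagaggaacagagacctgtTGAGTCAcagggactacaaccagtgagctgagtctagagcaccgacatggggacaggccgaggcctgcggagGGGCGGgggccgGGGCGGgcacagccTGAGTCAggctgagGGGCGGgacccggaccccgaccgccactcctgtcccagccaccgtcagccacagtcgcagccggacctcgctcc
Anxa1 (chr19:20390622-20390921, minus strand): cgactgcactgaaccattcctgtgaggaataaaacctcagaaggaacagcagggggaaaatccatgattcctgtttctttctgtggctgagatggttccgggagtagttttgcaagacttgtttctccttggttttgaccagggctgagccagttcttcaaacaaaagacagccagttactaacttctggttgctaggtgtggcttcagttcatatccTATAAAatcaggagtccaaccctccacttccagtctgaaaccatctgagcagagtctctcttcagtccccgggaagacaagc
S100a13 and S100a1 held none of these motifs, and their windows held 14 and 11 CpG dinucleotides, against a median of 7 over all windows. S100a6 held 1 match to CCAAT, as its reverse complement, 228 bases before the start. The S100a11 window held 3 GC boxes, the nearest beginning 24 bases before the start, and 2 matches to TGANTCA, 38 and 136 bases before it. Anxa1 held 1 TATAAA, beginning 32 bases before the start, and no GC box, with 3 CpG dinucleotides and 47.3% G and C. These matches describe the letters only.

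S100a6 (calcyclin), an S100 gene known from fibroblasts and proliferating cells, had the highest fold change of the 9 members after OHT in each of HDAC1-WT, HDAC1-E63R and HDAC1-Y48E. In HDAC1-WT its level was 5.77, 3.35 and 4.30 CPM untreated and 15.02, 15.96 and 16.96 CPM after OHT. The HDAC1-E63R libraries held 12.4, 12.4 and 29.6 CPM untreated and 215, 216 and 235 CPM after OHT. The HDAC1-Y48E libraries held 15.7, 10.3 and 11.9 CPM untreated and 267, 272 and 267 CPM after OHT. The treated and untreated libraries did not overlap in any line, and all treated mutant libraries were above 200 CPM while no other library reached 30 CPM. The corresponding log2 fold changes were 1.84 ± 0.27 (SE, n = 3 per group), 3.62 ± 0.23 and 4.41 ± 0.24, or 3.57-fold, 12.3-fold and 21.3-fold. The difference between lines was 1.79 ± 0.36 on the log2 scale for HDAC1-E63R minus HDAC1-WT (2.32 ± 0.21 without HDAC1-E63R untreated replicate 3) and 2.58 ± 0.36 for HDAC1-Y48E minus HDAC1-WT, both past the DEG limits. The difference between the mutants, 0.79 ± 0.32, did not pass them and fell to 0.25 ± 0.17 without HDAC1-E63R untreated replicate 3, where the effect in HDAC1-E63R rose to 4.16 ± 0.13. The DEG call of S100a6 in HDAC1-WT was lost in 4 of the 6 fits that left out 1 library of that line (untreated replicate 2 or 3, OHT replicate 2 or 3), with log2 fold changes between 1.66 and 2.06. The call for HDAC1-E63R minus HDAC1-WT was lost in 4 of 12 such fits (without HDAC1-WT untreated replicate 1 or 3, HDAC1-WT OHT replicate 1 or HDAC1-E63R OHT replicate 3), at 1.56 to 1.80.

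S100a6 already differed between the lines before treatment. Its untreated level was higher than in HDAC1-WT by a log2 fold change of 2.01 ± 0.27 in HDAC1-E63R (1.48 ± 0.17 without replicate 3) and 1.49 ± 0.28 in HDAC1-Y48E, and all 6 untreated mutant libraries were above all 3 untreated HDAC1-WT libraries. The untreated mutant libraries, at 10.3 to 29.6 CPM, spanned the 15.02 to 16.96 CPM of the treated HDAC1-WT libraries.

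The level of S100a10 (p11), the binding partner of annexin A2, in HDAC1-WT was 54.8, 55.4 and 61.1 CPM untreated and 66.5, 74.6 and 85.0 CPM after OHT. HDAC1-E63R gave 56.2, 54.6 and 116 CPM untreated and 126, 138 and 128 CPM after OHT. HDAC1-Y48E gave 71.0, 70.0 and 69.5 CPM untreated and 182, 167 and 166 CPM after OHT. All treated libraries were above all untreated ones within each line, and in HDAC1-E63R the untreated replicate 3 was nearly as high as the treated libraries. The log2 fold changes were 0.40 ± 0.19, 0.79 ± 0.19 and 1.29 ± 0.19, of which that in HDAC1-Y48E met the DEG limits. Without HDAC1-E63R untreated replicate 3 the change in that line was 1.24 ± 0.10, which also met them, and the difference between the mutants went from 0.50 ± 0.26 to 0.05 ± 0.13.

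S100a11 (calgizzarin), which binds annexins A1 and A2, kept close levels in HDAC1-WT, with 35.1, 35.5 and 37.0 CPM untreated and 32.5, 30.5 and 34.8 CPM after OHT. In HDAC1-E63R it was 28.3, 30.3 and 38.7 CPM untreated and 51.2, 49.1 and 53.1 CPM after OHT. In HDAC1-Y48E it was 39.6, 39.6 and 37.4 CPM untreated and 83.0, 87.7 and 88.7 CPM after OHT. The groups did not overlap in any line, with treated libraries lower in HDAC1-WT and higher in both mutants. The log2 fold changes were -0.14 ± 0.12, 0.66 ± 0.12 and 1.15 ± 0.12, and 0.80 ± 0.12 in HDAC1-E63R without untreated replicate 3. The change in HDAC1-Y48E exceeded that in HDAC1-WT by 1.29 ± 0.17 on the log2 scale. S100a11 is a gene with near-identical copies: Gm12854 matches it at 99.0% and Gm7665 at 98.7% over 297 bases. They took 297 and 843 counts over all libraries beside 8630 for S100a11. Gm13640, Gm29240 and S100a11-ps, at 91.2%, 90.6% and 93.7% identity, had 0 counts. Reads that match S100a11 and a copy equally well could have been assigned to neither, so these counts do not bound the uncertainty of S100a11. With its copies added, the mean level was 41.0 ± 1.32 CPM (SD, n = 3) in untreated HDAC1-WT, 43.3 ± 2.66 CPM in untreated HDAC1-Y48E and 96.7 ± 4.30 CPM in HDAC1-Y48E after OHT.

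S100a13, which takes part in the release of FGF1 and interleukin 1α from cells without a signal peptide, was the only member called lower in any of the 3 OHT comparisons. In HDAC1-WT its level was 14.3, 22.3 and 23.5 CPM untreated and 20.4, 22.7 and 14.2 CPM after OHT. The HDAC1-E63R libraries held 9.24, 8.13 and 25.7 CPM untreated and 9.85, 6.77 and 7.73 CPM after OHT. The HDAC1-Y48E libraries held 24.2, 20.8 and 20.3 CPM untreated and 5.12, 5.35 and 2.70 CPM after OHT. The HDAC1-Y48E groups were far apart, the HDAC1-WT groups overlapped, and in HDAC1-E63R the first 2 untreated libraries were already as low as the treated ones. S100a13 fell by 2.31 ± 0.36 on the log2 scale in HDAC1-Y48E, or 4.96-fold, and its change was -0.07 ± 0.32 in HDAC1-WT. In HDAC1-E63R the change was -0.81 ± 0.34 with all libraries and -0.10 ± 0.26 without untreated replicate 3. Leaving that library out also put 3 values past the DEG limits that were not past them before: the difference between the mutants in the OHT effect (-2.22 ± 0.36, against -1.498 ± 0.491), untreated HDAC1-E63R against untreated HDAC1-WT (-1.20 ± 0.26, against -0.49 ± 0.33) and untreated HDAC1-Y48E against untreated HDAC1-E63R (1.32 ± 0.26, against 0.61 ± 0.33).

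S100a1, the S100 gene of striated muscle whose start faces that of S100a13, was 16.7, 15.6 and 11.6 CPM untreated and 17.4, 17.5 and 14.5 CPM after OHT in HDAC1-WT. It was 9.52, 5.31 and 17.2 CPM untreated and 8.03, 8.67 and 11.5 CPM after OHT in HDAC1-E63R. It was 17.38, 20.04 and 17.98 CPM untreated and 7.13, 15.1 and 9.27 CPM after OHT in HDAC1-Y48E. The treated libraries were below the untreated ones in HDAC1-Y48E, the groups of the other lines overlapped, and no OHT comparison met the DEG limits (log2 fold changes of 0.17 ± 0.30, -0.18 ± 0.31 and -0.81 ± 0.30), although the last did without HDAC1-Y48E OHT replicate 2 (-1.17). Without untreated replicate 3 the change of S100a1 in HDAC1-E63R was 0.32 ± 0.27, the opposite sign, and its untreated level was higher in HDAC1-Y48E than in HDAC1-E63R by 1.30 ± 0.27, past the DEG limits. Both genes of the shared promoter region had their lowest untreated value in the same library, HDAC1-E63R replicate 2, at 5.31 CPM for S100a1 and 8.13 CPM for S100a13.

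**Figure D2:**
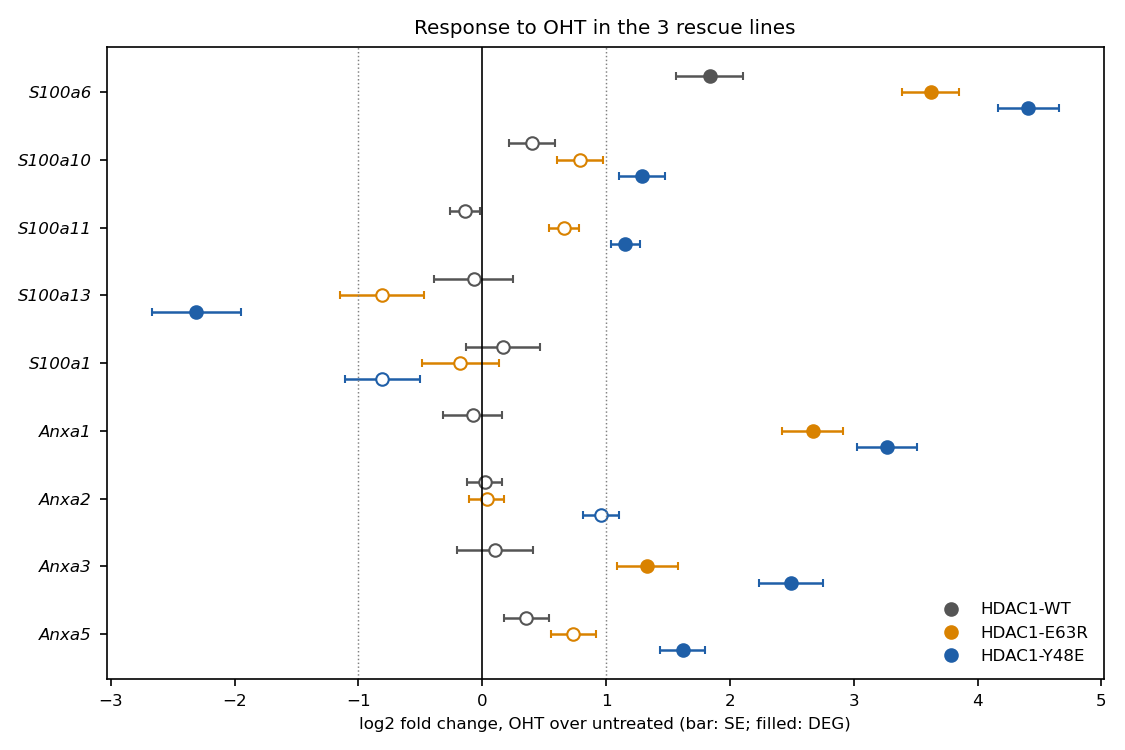
Log2 fold change of the 9 detected genes after OHT (x axis, OHT over untreated) in HDAC1-WT, HDAC1-E63R and HDAC1-Y48E, with bars for the SE from edgeR and filled points for DEGs; dotted lines mark a 2-fold change. S100a6, Anxa1 and Anxa3 are filled in both mutants, S100a6 alone is filled in HDAC1-WT, and S100a13 lies at -2.31 in HDAC1-Y48E.

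Anxa1, the annexin with anti-inflammatory actions through formyl peptide receptors, was the member whose response differed most between the mutants and HDAC1-WT. In HDAC1-WT its level was 9.21, 8.25 and 4.70 CPM untreated and 8.48, 6.71 and 5.92 CPM after OHT. HDAC1-E63R gave 4.07, 4.18 and 3.55 CPM untreated and 20.3, 29.3 and 25.8 CPM after OHT. HDAC1-Y48E gave 6.05, 4.10 and 3.99 CPM untreated and 39.7, 45.3 and 51.8 CPM after OHT. The HDAC1-WT groups overlapped, and in both mutants every treated library was above every untreated one. The log2 fold changes were -0.08 ± 0.24, 2.67 ± 0.25 and 3.27 ± 0.24, or 6.36-fold in HDAC1-E63R and 9.65-fold in HDAC1-Y48E. The differences from HDAC1-WT were 2.75 ± 0.34 and 3.35 ± 0.34 on the log2 scale, and the difference between the mutants was 0.60 ± 0.34. Anxa1 was little affected by HDAC1-E63R untreated replicate 3, with a change of 2.60 ± 0.26 without it. Its untreated level differed from that in HDAC1-WT by -0.91 ± 0.26 on the log2 scale in HDAC1-E63R, with groups apart, and by -0.65 ± 0.25 in HDAC1-Y48E, with groups overlapping, and neither met the DEG limits, which the first did without HDAC1-WT untreated replicate 3 (-1.13).

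Anxa3, an annexin found in neutrophils and in several epithelia, rose in both mutants. In HDAC1-WT its level was 2.88, 6.16 and 1.9 CPM untreated and 5.39, 2.54 and 3.97 CPM after OHT. In HDAC1-E63R it was 12.1, 15.70 and 16.01 CPM untreated and 38.4, 34.6 and 37.3 CPM after OHT. In HDAC1-Y48E it was 7.15, 9.11 and 8.40 CPM untreated and 44.0, 47.6 and 47.1 CPM after OHT. Treated and untreated libraries overlapped in HDAC1-WT and were apart in both mutants, with both groups of each mutant above every HDAC1-WT library. The log2 fold changes were 0.10 ± 0.31, 1.33 ± 0.25 and 2.49 ± 0.26, the last being 2.39 ± 0.40 above that of HDAC1-WT (1.76 without HDAC1-WT untreated replicate 2). The difference of HDAC1-E63R from HDAC1-WT, 1.23 ± 0.40, did not meet the DEG limits. Before treatment Anxa3 was higher than in HDAC1-WT by 1.98 ± 0.28 in HDAC1-E63R and 1.16 ± 0.29 in HDAC1-Y48E. These were 2.61 and 1.77 without HDAC1-WT untreated replicate 2, the highest of its group, and the call in HDAC1-Y48E was lost in each of the other 5 fits that left out 1 library, at 0.86 to 1.25. Anxa3 shares 3.07% of its exon bases with Gm42603 on the same strand, and Anxa2 shares 2.63% of its with Gm16144 on the opposite strand.

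Anxa2, the annexin that pairs with S100A10 and binds plasminogen activator at the cell surface, took more counts than any other member in each of the 6 groups. In HDAC1-WT its level was 147, 158 and 150.2 CPM untreated and 153, 147 and 161 CPM after OHT. The HDAC1-E63R libraries held 236, 241 and 412 CPM untreated and 294, 312 and 304 CPM after OHT. The HDAC1-Y48E libraries held 220.3, 210 and 225 CPM untreated and 397, 431 and 446 CPM after OHT. The 2 HDAC1-WT groups overlapped, and all 12 mutant libraries, treated or not, were above all 6 HDAC1-WT libraries. The log2 fold changes after OHT were 0.02 ± 0.14, 0.04 ± 0.14 and 0.96 ± 0.14, the last a 1.94-fold change just under the 2-fold limit, which it passed without HDAC1-Y48E OHT replicate 1. In HDAC1-E63R the change was 0.35 ± 0.07 without untreated replicate 3, in which Anxa2 was the highest of the 6 libraries of the line. The untreated difference from HDAC1-WT was 0.96 ± 0.14 in HDAC1-E63R (0.66 ± 0.07 without replicate 3) and 0.53 ± 0.14 in HDAC1-Y48E. The first met the DEG limits without HDAC1-E63R untreated replicate 1 (1.10) or 2 (1.09) or HDAC1-WT untreated replicate 2 (1.007).

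Anxa5, known for binding phosphatidylserine on dying cells, was 26.1, 22.9 and 20 CPM untreated and 27.3, 31.8 and 29.3 CPM after OHT in HDAC1-WT. It was 19.96, 16.83 and 25.5 CPM untreated and 35.8, 27.3 and 40.5 CPM after OHT in HDAC1-E63R. It was 18.04, 25.16 and 16.15 CPM untreated and 57.4, 60.7 and 64.0 CPM after OHT in HDAC1-Y48E. Treated libraries were above untreated ones in each line, by the widest margin in HDAC1-Y48E, and the untreated groups of the 3 lines overlapped. The log2 fold changes were 0.36 ± 0.18, 0.73 ± 0.18 (0.90 ± 0.17 without untreated replicate 3) and 1.62 ± 0.18. The effect in HDAC1-Y48E exceeded that in HDAC1-WT by 1.26 ± 0.25, past the DEG limits, and that in HDAC1-E63R by 0.88 ± 0.26 (0.71 ± 0.23 without HDAC1-E63R untreated replicate 3), which did not pass them.

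Side by side, treated and untreated libraries did not overlap for 4 of the 9 members in HDAC1-WT, 6 in HDAC1-E63R and 9 in HDAC1-Y48E, where 19.2%, 36.9% and 59.4% of all tested genes were apart. Without HDAC1-E63R untreated replicate 3 the count in that line was 7, against 54.8% of all genes. The difference in the OHT effect met the DEG limits for 2 members between HDAC1-E63R and HDAC1-WT (1.68% of all genes) and for 6 between HDAC1-Y48E and HDAC1-WT (8.62%), namely S100a6, S100a11, S100a13, Anxa1, Anxa3 and Anxa5. Between HDAC1-Y48E and HDAC1-E63R it met them for 0 members with edgeR (1.31% of all genes) and for 0 with DESeq2. At an unadjusted edgeR p under 0.05 the count was 6 of the 9 (18.8% of all genes). Without HDAC1-E63R untreated replicate 3 the difference met the DEG limits for 1 member, S100a13 (2.38% of all genes). Before treatment, 2 members, S100a6 and Anxa3, met the limits in HDAC1-E63R against HDAC1-WT (7.65% of all genes), and the same 2 did in HDAC1-Y48E against HDAC1-WT (5.57%). The first count was 3, with S100a13, when untreated replicate 3 was left out (6.98% of all genes). Untreated libraries did not overlap for 4 members between HDAC1-E63R and HDAC1-WT (35.2% of all genes), 6 between HDAC1-Y48E and HDAC1-WT (40.2%) and 3 between the mutants (17.7%). With that replicate left out the first and the last were 8 (51.7%) and 6 (34.6%). Untreated HDAC1-Y48E against untreated HDAC1-E63R gave 0 with edgeR (0.974% of all genes), 5 at an unadjusted p under 0.05 (18.4% of all genes) and 0 with DESeq2, and 2, S100a1 and S100a13, without the replicate (1.27%). The members were picked with such contrasts in view, so their counts at either limit are a description. A count of 0 is not read as no difference, nor the counts at an unadjusted p as a difference. These comparisons share libraries, since each untreated group serves its own line's OHT comparison and the untreated ones.

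**Figure D3:**
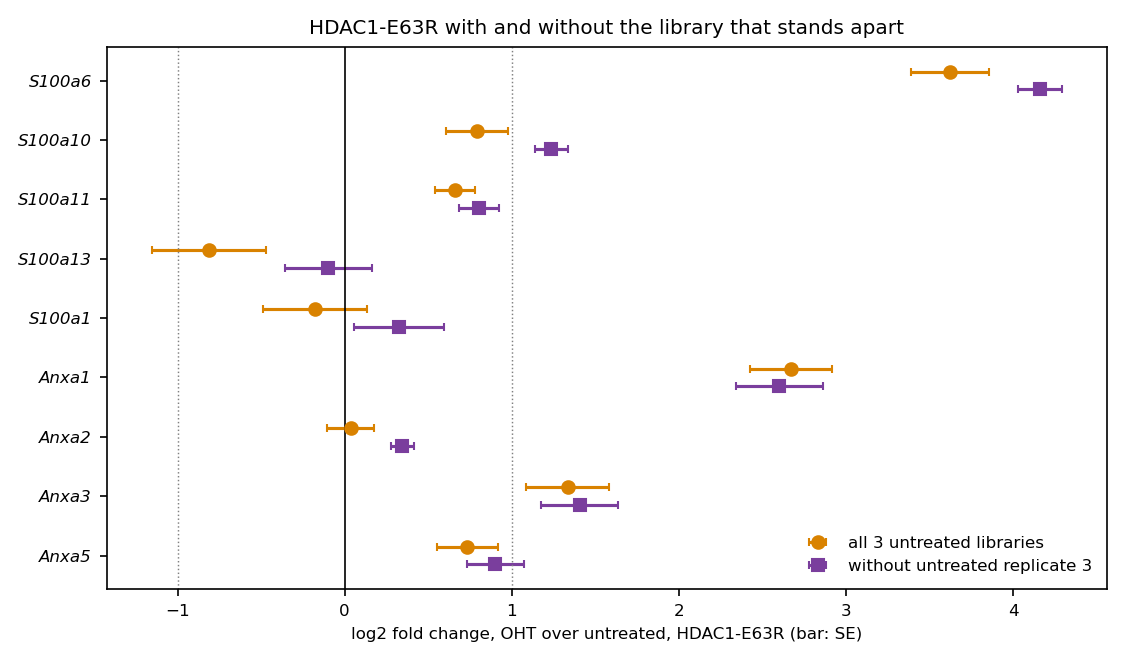
Log2 fold change after OHT in HDAC1-E63R (x axis, bars the SE) with all 3 untreated libraries (circles) and without untreated replicate 3 (squares). S100a6 moves from 3.62 to 4.16, S100a10 from 0.79 to 1.24 and S100a13 from -0.81 to -0.10, while Anxa1 and Anxa3 stay within 0.10 of their first values.

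Compared per length of annotated exon, the order of the members changed with treatment in the mutants. In untreated HDAC1-WT the highest levels were those of S100a11 (70.2 ± 1.98 CPM per kb), S100a10 (47.1 ± 2.88) and Anxa2 (40.7 ± 1.48), and the lowest those of S100a6 (3.27 ± 0.89), Anxa1 (2.54 ± 0.82) and Anxa3 (1.00 ± 0.61). After OHT in HDAC1-WT the difference between S100a11 (63.8 ± 4.23) and S100a10 (62.2 ± 7.62) was smaller than their SDs together. In HDAC1-E63R after OHT S100a6 came first at 162 ± 8.32 CPM per kb, followed by S100a10 (108 ± 5.28) and S100a11 (100.1 ± 3.97), which differed by less than their SDs together although their libraries did not overlap, and Anxa2 (81.3 ± 2.33). In HDAC1-Y48E after OHT the order was S100a6 (197 ± 2.16), S100a11 (169 ± 5.94), S100a10 (142 ± 7.54) and Anxa2 (114 ± 6.61), each apart from the next by more than their SDs. Below them Anxa5 (34.2 ± 1.84) stood apart, S100a1 (15.2 ± 5.98) overlapped both Anxa1 (15.7 ± 2.09) and Anxa3 (12.7 ± 0.54), which were apart from each other, and S100a13 (6.14 ± 2.05) was last. In untreated HDAC1-Y48E, Anxa2 (58.5 ± 2.17) and S100a10 (57.9 ± 0.66) did not differ beyond their SDs.

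**Figure D4:**
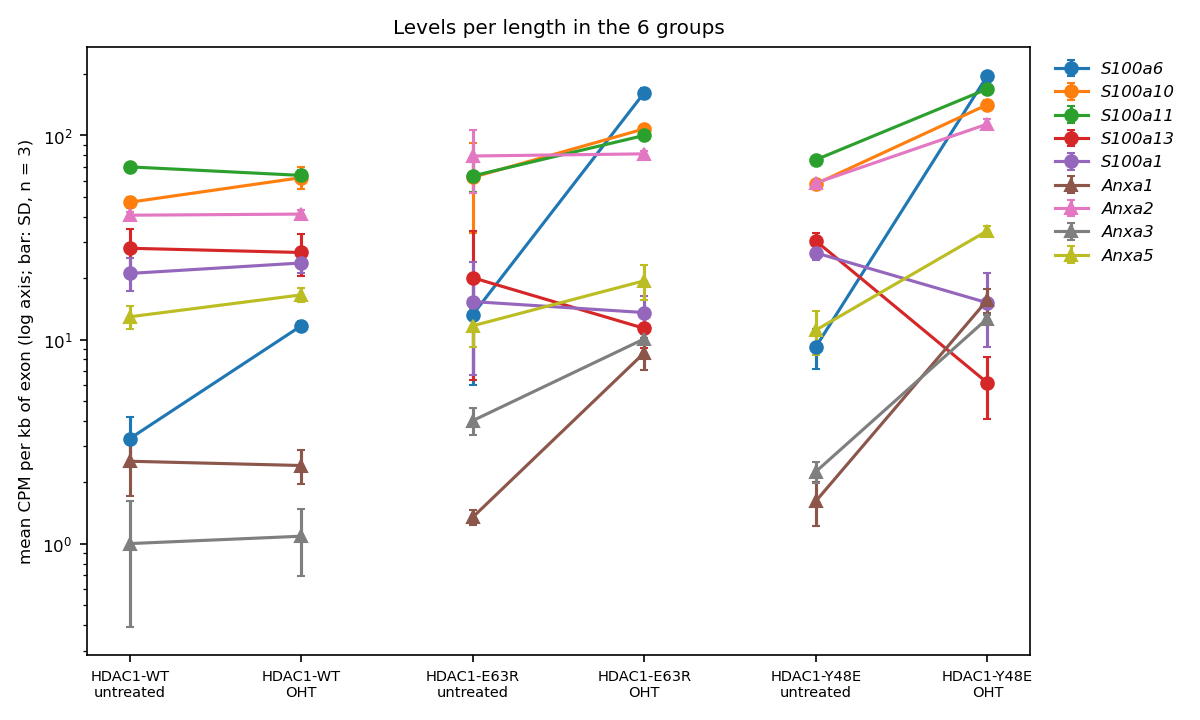
Mean level of the 9 detected genes per kb of annotated exon (CPM per kb, log axis, bars the SD of 3 libraries) in the untreated and OHT groups of each line. S100a6 rises from the lower part of the order to first place in HDAC1-E63R (162) and HDAC1-Y48E (197) after OHT, and S100a13 falls to last place in HDAC1-Y48E (6.14).

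The genes whose log2 CPM followed that of 3 members most closely over the 18 libraries are given as a description, since libraries of one group share their line and treatment. Among those for S100a6 were the actin-disassembly gene Wdr1 (Pearson's r = 0.970) and Aif1l (0.969). For S100a11 they were Tead3, a transcription factor of the Hippo pathway (0.966), the tight-junction gene Cldn6 (0.964) and Rtn4 (0.961). For Anxa2 they were Agpat5 (0.987), Mrps25 (0.985) and Suclg1 (0.982), the last 2 encoding mitochondrial proteins. Cldn6, for example, had a mean of 67.2 CPM in untreated HDAC1-Y48E and 257 CPM after OHT, and Mrps25 was at 63.6 CPM in untreated HDAC1-WT and 95.8 CPM in untreated HDAC1-E63R.

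Of 25 other genes of the 2 families found in the tables, 10 passed the filter. S100a14, an epithelial S100 gene that lies close to S100a13, had 0 counts in all 3 untreated HDAC1-Y48E libraries and 12.97 ± 1.52 CPM (SD, n = 3) after OHT, at least 39.1-fold higher against a floor of 3 counts per library (edgeR adjusted p = 3.72e-08). In HDAC1-E63R S100a14 rose from 0.451 ± 0.3003 to 7.49 ± 1.61 CPM (log2 fold change 4.00 ± 0.55, edgeR adjusted p = 2.47e-05, and 4.37 ± 0.62 without untreated replicate 3), and in HDAC1-WT it was 0.485 ± 0.405 and 0.882 ± 0.420 CPM (edgeR adjusted p = 0.71). Anxa8 rose in HDAC1-Y48E, from 4.46 ± 1.14 to 19.0 ± 0.51 CPM (2.08 ± 0.27, edgeR adjusted p = 2.3e-06), with 11.5 ± 2.79 and 15.9 ± 4.08 CPM in HDAC1-E63R (edgeR adjusted p = 0.182). Its log2 fold change in HDAC1-WT was -0.001 ± 0.256. The rise of Anxa8 in HDAC1-Y48E thus started from a lower untreated mean than that of HDAC1-E63R. Anxa6 was 1.48-fold higher in HDAC1-E63R and 1.53-fold higher in HDAC1-Y48E (edgeR adjusted p = 0.000133 and 1.61e-05), and Anxa7 was 1.502-fold lower in HDAC1-Y48E (edgeR adjusted p = 8.38e-05), all under the 2-fold limit. Anxa4 had a log2 fold change of -0.44 ± 0.11 in HDAC1-Y48E (edgeR adjusted p = 0.00244), also under 2-fold. Anxa11, with values of 0.00, 0.10 and -0.03 in the 3 lines, Anxa9, S100a16 and Flg did not pass the test, and neither did Tchh, at 0.254 ± 0.228 CPM in untreated and 2.87 ± 1.10 CPM in treated HDAC1-Y48E (edgeR adjusted p = 0.024). The 6 tested annexins outside the members had a median log2 fold change of 0.09 in HDAC1-Y48E.

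Genes for proteins known to bind S100 proteins or annexins were mixed in direction. Of 19 that were tested, 3 were DEGs in HDAC1-E63R, all higher. In HDAC1-Y48E 3 were higher and 2 lower, with a median log2 fold change of -0.22. Over all tested genes, 5.91% and 16.6% were DEGs in these lines. Values in HDAC1-E63R without untreated replicate 3 are given where a call or fold depends on it. Fgf1, a growth factor exported with S100A13, rose by 1.34 ± 0.26 in HDAC1-E63R and 3.12 ± 0.27 in HDAC1-Y48E on the log2 scale (edgeR adjusted p = 0.000593 and 5.71e-09). Plat, tissue plasminogen activator, which binds the complex of annexin A2 and S100A10, rose by 1.70 ± 0.35 and 3.36 ± 0.37 (edgeR adjusted p = 0.00105 and 2.23e-07), the first being 2.12 ± 0.34 without the replicate. Pla2g4a, cytosolic phospholipase A2, rose in HDAC1-Y48E by 2.96 ± 0.57 (edgeR adjusted p = 0.000255), and in HDAC1-E63R it was not a DEG with all libraries and was one without the replicate (2.79 ± 0.71, edgeR adjusted p = 0.0023). Ahnak, the giant scaffold bound by annexin A2 and S100A10, rose by 1.03 ± 0.21 in HDAC1-E63R (edgeR adjusted p = 0.00103) and had 0.96 ± 0.21 in HDAC1-Y48E, under 2-fold unless untreated replicate 2 or 3 was left out. Its call in HDAC1-E63R was lost without untreated replicate 3 (0.75 ± 0.13), untreated replicate 1 (1.00, just under 2-fold) or OHT replicate 2 (0.96). The 2 DEGs that fell in HDAC1-Y48E were Dlc1, a GTPase-activating gene (-1.42 ± 0.16, edgeR adjusted p = 2.4e-07), and Tgm2, transglutaminase 2 (-1.06 ± 0.16, edgeR adjusted p = 1.29e-05). The change of Tgm2 was -0.98 without untreated replicate 2 or OHT replicate 1 of that line, under 2-fold.

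Of 23 tested genes of membrane repair, Ahnak among them, 3 were higher and 1 lower as DEGs in HDAC1-E63R. In HDAC1-Y48E 6 were higher and 1 lower. Dysf (dysferlin), the repair gene mutated in a limb-girdle dystrophy, rose in both mutants, by 2.05 ± 0.20 and 1.61 ± 0.20 on the log2 scale (edgeR adjusted p = 2.79e-07 and 8.95e-07), with -0.46 ± 0.20 in HDAC1-WT. Ehd1, of endocytic recycling, rose by 1.00 ± 0.10 and 1.08 ± 0.10 (edgeR adjusted p = 3.52e-07 and 1.99e-08), with the first under 2-fold without HDAC1-E63R untreated replicate 1 (0.92) or OHT replicate 3 (0.98). Cavin1, a caveolar coat gene, rose by 1.77 ± 0.10 in HDAC1-Y48E (edgeR adjusted p = 1.28e-11). Bin1, Ehd2 and Sytl4 rose there by 1.18 ± 0.18, 2.26 ± 0.51 and 2.96 ± 0.85. The call of Sytl4 was lost whichever of the 6 libraries was left out (2.68 to 3.22). In HDAC1-E63R Cavin1 rose by 0.94 ± 0.10, under 2-fold (edgeR adjusted p = 7.26e-07). There Bin1, Ehd2 and Sytl4 had 0.485 ± 0.178, 1.83 ± 0.51 and -0.49 ± 0.835 and were not DEGs. Ehd2 was one without HDAC1-E63R untreated replicate 2 (2.37), and had 1.37 ± 0.53 without replicate 3. Ahnak2 was the one DEG that fell, by 1.57 ± 0.26 in HDAC1-E63R and 1.87 ± 0.28 in HDAC1-Y48E (edgeR adjusted p = 0.000143 and 1.26e-05). Of 25 other EF-hand genes tested, Tesc was the only DEG, higher in both mutants by 1.36 ± 0.24 and 1.34 ± 0.22. Of 7 copines, which like annexins bind membranes with calcium, Cpne2 (1.41 ± 0.35), Cpne8 (1.78 ± 0.34) and Cpne4 were DEGs, all higher in HDAC1-Y48E. The call of Cpne2 was lost without untreated replicate 3 (1.23), and that of Cpne4 without any 1 of the untreated libraries. Cpne4 was at 0 counts in untreated HDAC1-Y48E and 1.31 ± 0.43 CPM after OHT, at least 3.96-fold higher against the floor. Over these lists together, 0 of 81 genes were DEGs in HDAC1-WT with edgeR (9 at an unadjusted p under 0.05, beside 9.86% of all genes, and 0 with DESeq2), 8 in HDAC1-E63R and 18 in HDAC1-Y48E, where 5.91% and 16.6% of all tested genes were. Without HDAC1-E63R untreated replicate 3 the count in that line was 8 of 85.

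Among the 10 tested genes within 100 kb of an S100 member that are no members themselves, 2 were DEGs in HDAC1-E63R, both higher. In HDAC1-Y48E 2 were higher and 1 lower. Over all tested genes, 5.91% and 16.6% were DEGs in these lines. Besides S100a14, the one higher in both was Gm5541, 64.0 kb from S100a10, with 0 counts in untreated HDAC1-E63R and 1.53 ± 0.58 CPM after OHT (at least 4.78-fold), and 0.447 ± 0.308 and 4.24 ± 1.12 CPM in HDAC1-Y48E (edgeR adjusted p = 0.00706). The lower one was Gm16048, 53.9 kb from S100a1 and 57.3 kb from S100a13 (-1.32 ± 0.37, edgeR adjusted p = 0.00574). The remaining 7 neighbours did not meet the DEG limits.

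Markers of other cell types changed after OHT in directions that differed between the lists, and their part in the member changes was not tested. The summed level of 8 epidermis markers, as the range over the 3 untreated and then the 3 treated libraries, went from 4.70–7.16 to 7.61–9.01 CPM after OHT in HDAC1-WT, from 5.49–8.02 to 38.3–43.2 CPM in HDAC1-E63R and from 4.62–10.25 to 59.0–63.4 CPM in HDAC1-Y48E, where Ivl was at 0 after OHT. Of 7 tested, 3 were DEGs in HDAC1-E63R, all higher, and 4 were higher and 1 lower in HDAC1-Y48E. Over all tested genes, 5.91% and 16.6% were DEGs in these lines, and the marker counts that follow are also of DEGs. The 10 fibroblast markers went from 49.7–58.6 to 68.9–71.2 CPM in HDAC1-WT, from 29.6–50.7 to 76.3–85.9 CPM in HDAC1-E63R and from 49.4–54.4 to 120.6–131 CPM in HDAC1-Y48E, with 3 of 5 tested genes higher in each mutant. Lum, Dcn and Fap were at 0 in treated HDAC1-Y48E. The 10 trophoblast markers went from 209.6–228 to 229–253 CPM in HDAC1-WT, from 85.0–99.7 to 168–177 CPM in HDAC1-E63R (2 of 8 tested higher, 1 lower) and from 92.8–105 to 132–144 CPM in HDAC1-Y48E (3 higher), with Tpbpa at 0 in both treated mutant groups. The 10 markers of primitive and parietal endoderm went from 653–667 to 551–675 CPM, from 209–317 to 362–377 CPM (2 of 9 higher) and from 455–493 to 497–506 CPM (1 of 9 higher) in the same order of lines. The 8 endothelium markers went from 205–221 to 214–227 CPM, from 114–158 to 145–158 CPM (2 of 7 higher) and from 170–183 to 120–130 CPM (3 higher, 2 lower), with Emcn at 0 in all groups. The 6 leukocyte markers went from 42.3–46.9 to 33.3–40.3 CPM, from 29.9–33.3 to 21.2–25.8 CPM and from 36.1–37.2 to 23.3–26.4 CPM, with 1 of 3 lower and Lyz2 at 0 in each treated mutant group. Of the 8 ESC markers, 5 were lower in HDAC1-Y48E.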

How the data were processed

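Raw counts per gene were taken as the authors deposited them, 1 table for each of the 18 libraries, made with HISAT2 2.1.0, SAMtools 1.9 and HTSeq on mm10 per the submitters' processing notes. The gene annotation and the counting mode and strand setting are not given in the sources used here, so overlapping genes on opposite strands cannot be told apart. Entries assigned to no gene (59.4% to 61.2% of each table) were left out of library sizes and tests. Depth was 9019615 to 11454638 counts on genes, so a count of 3, the limit that 0 allows, is 0.248 to 0.343 CPM. Such limits cover counting error only.

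Genes were filtered with filterByExpr by group (18791 of 53672 kept), scaled by TMM and fitted in R 4.3.3 with edgeR 4.0.16 (quasi-likelihood, 6 group means over all 18 libraries, Benjamini-Hochberg adjustment over all tested genes, DEG at adjusted p under 0.01 and more than 2-fold). SE is the log2 fold change divided by the square root of F. CPM uses TMM-scaled library sizes, and CPM per kb divides by merged exons of GENCODE M21. Promoter windows came from RefSeq (GRCm38.p6), and copies of members were found with blastn 2.17.0 at 90% identity or more. The fit was tested on simulated counts.

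The members and gene lists were chosen with earlier results of these data known. Text names all members, every tested gene of the 2 families, up to 8 DEGs with the largest change from each other list, neighbours within 100 kb that were DEGs after OHT, and the 3 genes most like S100a6, S100a11 and Anxa2 at a mean of 1 CPM or more (1 of these is not reported here). The labels number the libraries as replicates without naming separate cultures. The paper describes the 3 replicates behind its expression changes as biological, and how separately they were grown is not stated. P-values measure the spread between these libraries. Alternatives were RLE factors, no filter, a replicate block, glmTreat, only the libraries compared, DESeq2 1.42.0, an adjusted p limit of 0.05, leaving out each library and, added after the data were seen, length offsets. The replicate numbers did not pair libraries: deviations of same-numbered libraries from their group means correlated at -0.02 to 0.04.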

Additional observations from a re-analysis of the deposited data

Results flagged for a closer look

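The OHT effect differed between lines, by a test of the difference itself over all genes (edgeR, DEG limits as above), for 9 genes of the 2 families, and each difference is the mutant minus HDAC1-WT on the log2 scale. For HDAC1-E63R it was 1.79 for S100a6 and 2.75 for Anxa1. For HDAC1-Y48E it was 2.58 for S100a6, 1.29 for S100a11, -2.24 for S100a13, 3.35 for Anxa1, 2.39 for Anxa3, 1.26 for Anxa5 and, outside the members, 2.09 for Anxa8. S100a14 and Tchh also passed for HDAC1-Y48E (edgeR adjusted p = 4.42e-05 and 0.00681), but each was at 0 counts in a whole group, S100a14 in untreated HDAC1-Y48E and Tchh in treated HDAC1-WT, so the size of the difference depends on the prior count and is not given. S100a13 is the one gene of the 9 with a negative difference. The 6 members among them were picked with such differences in view, and the values are a description. Groups held 3 libraries each, too few to tell an outlying library within a gene from ordinary spread. Leaving out 1 library at a time lost the call of S100a6 for HDAC1-E63R in some fits. It took Anxa3 for HDAC1-Y48E to 1.76 without HDAC1-WT untreated replicate 2, still past the DEG limits.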

How the results depend on the processing

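Counts of members that met the DEG limits moved with some settings. Under glmTreat, which tests against a 2-fold change, they were 0 after OHT in HDAC1-WT, 1 for HDAC1-E63R minus HDAC1-WT, 2 for HDAC1-Y48E minus HDAC1-WT, and 1 and 0 for untreated HDAC1-E63R and HDAC1-Y48E against HDAC1-WT. With only the libraries compared they were 1 for HDAC1-E63R minus HDAC1-WT, 1 for HDAC1-Y48E minus HDAC1-E63R and 0 for untreated HDAC1-E63R against HDAC1-WT, and without the filter 2 for HDAC1-Y48E minus HDAC1-E63R. Leaving out 1 library at a time gave 0 to 1 in HDAC1-WT, 1 to 2 for HDAC1-E63R minus HDAC1-WT, 0 to 1 for HDAC1-Y48E minus HDAC1-E63R, 1 to 2 for untreated HDAC1-Y48E against HDAC1-WT and 0 to 2 for untreated HDAC1-Y48E against HDAC1-E63R, the last reaching 2 without HDAC1-E63R untreated replicate 3. The other lists had 2 DEGs in HDAC1-E63R and 8 in HDAC1-Y48E under glmTreat, and 3 in HDAC1-E63R with only the libraries compared. The cause of these moves was not tested. Of 1296 member values under these alternatives, 1227 stayed the same. These were either called both times, or uncalled both times with a shift under the SD within groups. Of the rest, 28 lost a call, 17 gained one, 24 were uncalled and shifted by at least that SD, and 0 changed sign with a call. RLE factors and length offsets shifted the median of all genes by less than 0.1 on the log2 scale.

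With a replicate block, members called stayed at 1, 3 and 7 after OHT in HDAC1-WT, HDAC1-E63R and HDAC1-Y48E, and the other lists had 0, 8 and 17 against 0, 8 and 18 without it. The numbers are shared labels only, and this pairing is not in the design. S100a13 and S100a1 rest on 30 to 250 counts a library, and Anxa3 in HDAC1-WT on 19 to 68, which limits the precision of their changes.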
